A study of Sus scrofa with 30 samples.

Results

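The genes described here are homeobox and PAX regulators outside the HOX clusters, a hand-made list of 46 genes from the PAX, IRX, LHX, NKX, DLX, MSX, OTX, EMX, PITX, EN, GBX and VAX families, with SIX2, SIX3, SIX6 and GSC. Of these, 44 had a position on chromosomes 1 to 18 or X in the pig annotation, out of 19484 protein-coding genes there. PAX8 had no entry under that symbol and LHX3 lay on an unplaced sequence, and both were not analysed here. Pig oocytes and embryos from in vitro fertilisation were profiled for 2 histone marks, H3K4me3 (lysine 4 of histone H3 with 3 methyl groups) and H3K27me3 (the same on lysine 27), by ULI-NChIP, a native chromatin immunoprecipitation for very few cells. H3K4me3 was measured in 4-cell embryos grown from zygotes injected with small interfering RNA (siRNA) to KDM5B and KDM5C, enzymes that take methyl groups off H3K4 (siKDM5BC), in germinal vesicle (GV) and metaphase II (MII) oocytes, and in untreated embryos at the 1-cell, 2-cell, 4-cell, 8-cell, morula and blastocyst stages. H3K27me3 was measured in MII oocytes and in 2-cell, 4-cell and 8-cell embryos, morulae and blastocysts. Each of the 15 groups had 2 libraries, 30 in all, and the labels do not give the number of oocytes or embryos in each. As none is labelled as injected with a control siRNA, siKDM5BC embryos are set against untreated 4-cell embryos, and injection cannot be told apart from loss of KDM5B and KDM5C, which peak lists cannot check. The labels do not say whether the 2 libraries of a group are separate collections, so each p-value reflects the spread between these libraries, which may be technical.

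Homeobox and PAX proteins bind DNA through conserved domains and assign regional and cell identity after gastrulation, in the nervous system, eye, kidney, muscle, limb, heart and endocrine organs. In mouse and human embryonic stem cells their promoters are the classic carriers of both H3K4me3, found at active promoters, and H3K27me3, the mark laid down by Polycomb repressive complex 2 at silenced developmental genes. The roles given below are background known mainly from mouse and human.

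For each gene, the measure was the share of a window covered by the deposited peaks of a library. The window joined the 5 kb on each side of both gene ends, because the annotation used here gives no strand. A marked gene had a peak within 1 kb of either end. The 44 genes were compact, with a median length of 6636.5 bp against 20697.5 bp for all coding genes, and in 28 of them (up to 10001 bp long) the window took in the whole gene. Several sit side by side in the Sscrofa11.1 assembly. IRX1, IRX2 and IRX4 lie on chromosome 16, and IRX6, IRX5 and IRX3 lie on chromosome 6. The windows of DLX1 (chromosome 15, 78186667 to 78191788) and DLX2 (78200696 to 78204264) overlap, as do those of DLX6 and DLX5 on chromosome 9, so the values within each of these pairs share base pairs.

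Libraries differed in how much was called. The H3K4me3 lists covered 31.6 Mb (4-cell replicate 2) to 179 Mb (siKDM5BC replicate 1), and the H3K27me3 lists 1.28 Mb (2-cell replicate 2) to 109 Mb (blastocyst replicate 2). The lists hold no read totals, so depth is unknown, and a larger covered share can come with more called peaks everywhere. The same values over all genes are therefore given beside those of the 44 genes. As a check of the labels, H3K4me3 peaks marked 2 of 5 oocyte genes (GDF9, BMP15, ZP3, ZP4 and NLRP5) in both blastocyst libraries and 4 of 5 in both GV libraries, while 4 of 5 trophectoderm genes were marked in both libraries of either stage. Of 5 cumulus and granulosa cell genes, 3 were marked in both blastocyst libraries and 3 in both GV libraries, and their part in the results was not tested. These are histone marks and not transcripts.

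H3K4me3 lay at nearly all of the 44 genes at every stage. In both libraries of a group it marked 42 genes in GV oocytes (69.6% of all coding genes), 37 in MII oocytes (56.6%), 41 in 1-cell (60.9%), 43 in 2-cell (70.8%), 40 in 4-cell (66.0%) and 40 in 8-cell embryos (68.1%), 43 in morulae (72.7%) and 42 in blastocysts (73.6%). What varied was the breadth. The median window coverage of the 44 genes was 49.3% and 34.6% in the GV libraries, 22.1% and 32.5% in MII, 29.3% and 46.8% in 1-cell, 48.2% and 49.8% in 2-cell, 38.1% and 27.3% in 4-cell, 23.0% and 26.6% in 8-cell embryos, 32.8% and 34.3% in morulae and 32.0% and 32.7% in blastocysts. The broadest untreated embryos were thus at the 2-cell stage, and of neighbouring stages the MII and 1-cell libraries overlapped. For all coding genes the medians ran from 4.77% (MII replicate 1) to 15.4% (1-cell replicate 2).

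**Figure D1:**
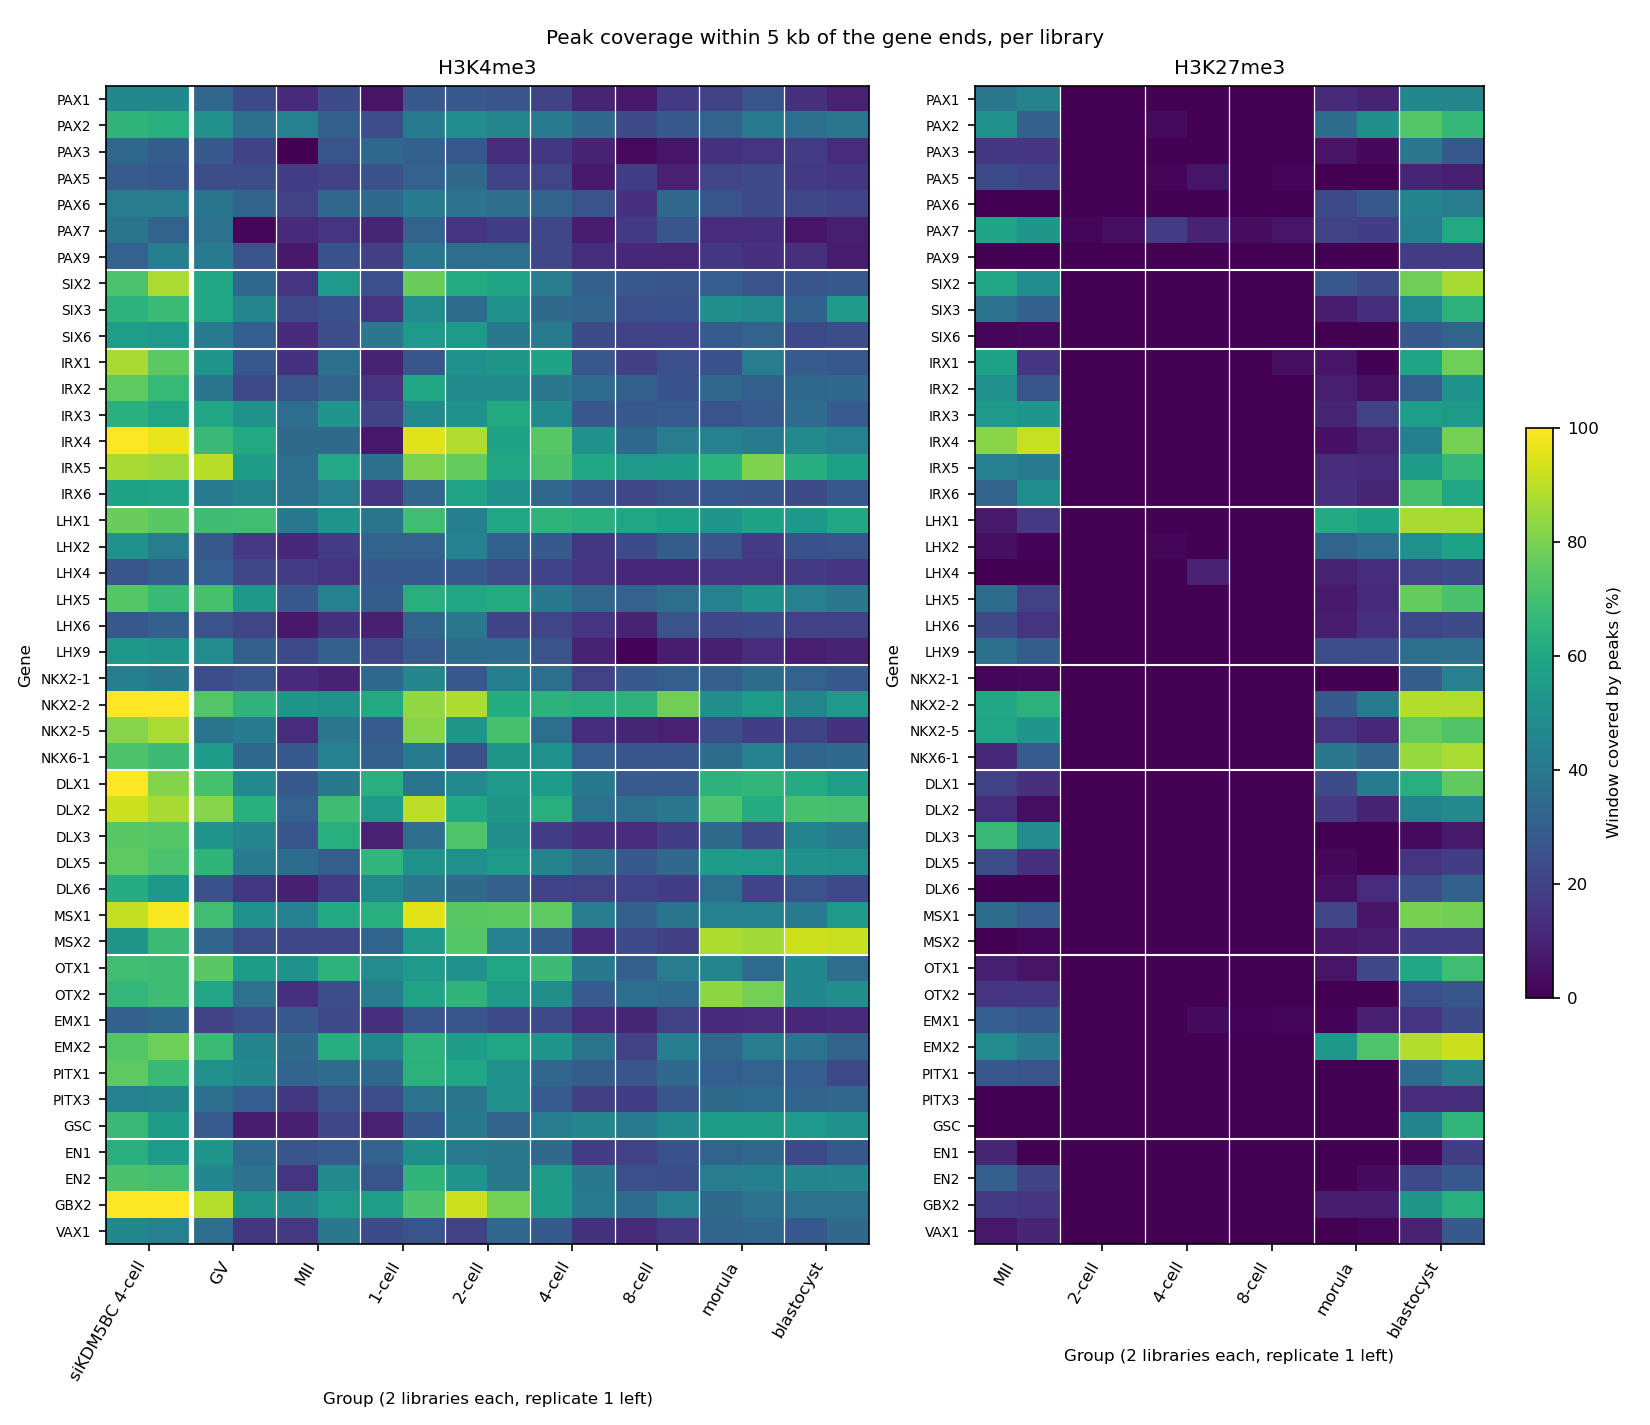
Share of the window covered by peaks (%, colour) for each of the 44 genes (rows, grouped by family) in each library (columns, 2 per group), with H3K4me3 on the left, siKDM5BC before the stages, and H3K27me3 on the right. The siKDM5BC columns are the brightest of H3K4me3, with NKX2-2 and GBX2 at 100% in both libraries, and the H3K27me3 panel is near 0 from the 2-cell to the 8-cell stage.

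The strength of the peaks behind this breadth differed between stages. Counting only peaks with a deposited −log10 q of 3 or more, the median coverage of the 44 genes was 0 in all 8 libraries of GV, MII, 1-cell and 2-cell samples. It was 33.9% and 16.2% in 4-cell embryos, 12.1% and 19.6% in 8-cell embryos, 31.1% and 31.7% in morulae, and 29.5% and 30.4% in blastocysts. Under this rule only 8 of the 44 genes were marked in both GV libraries and 0 in both MII, both 1-cell or both 2-cell libraries. The oocyte, 1-cell and 2-cell coverage of these genes thus lay mostly in peaks under that limit. Most of all genes tested rose under this rule in blastocysts against MII oocytes (below), so weak MII peaks were not particular to the 44 genes. For the other stages the all-gene values under this rule are not given here, so no trait of the 44 genes can be read from them. A peak's q also depends on read depth, which is unknown.

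The families differed in breadth. In blastocysts the family medians of gene means ran from 15.1% of the window for PAX and 22.5% for LHX to 50.3% for DLX and MSX, with IRX at 33.0%. The lowest means of all 44 genes at this stage were 7.07% at PAX7, a factor of muscle stem cells and neural crest, and 9.38% at LHX9, a regulator of gonad formation, and the highest was 92.0% at MSX2, a regulator of skull and limb development. Short genes had broader relative coverage. The median gene mean was 41.6% for the 28 short genes and 18.04% for the 16 longer ones in blastocysts.

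siKDM5BC 4-cell embryos had wider H3K4me3 at all 44 genes than untreated 4-cell embryos. The median coverage was 65.8% and 67.3% in the siKDM5BC libraries, against 38.1% and 27.3% in the untreated ones, and all 44 genes were marked in both siKDM5BC libraries (77.7% of all coding genes). At every one of the 44 genes both siKDM5BC libraries exceeded both untreated libraries, as they did for 78.5% of all 17538 genes tested, while the reverse held for 0 of the 44 and 0.633% of all. The median difference was 29.2 percentage points (points below) for the 44 genes, against 10.03 points for all genes tested, and each of the 44 genes lay above that all-gene median. In the 28 short genes the median difference was 32.8 points and in the 16 longer genes 20.8 points, beside 14.7 and 8.92 points for all short and all longer genes tested.

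The test was limma on the covered percentage, over all genes with a mean coverage of at least 1% in the mark's libraries, with Benjamini-Hochberg (BH) adjustment over all of them. All 44 genes passed this filter for both marks. For H3K27me3, PAX9, PITX3 and GSC passed only through the blastocyst libraries, the only ones with a peak in their windows. SIX6 (1.72% and 2.26%) and NKX2-1 (1.54% and 1.95%) had peaks elsewhere only in MII oocytes. They also needed the blastocyst libraries to reach a mean of 1%. By this test 31 of the 44 genes rose in siKDM5BC embryos and 0 fell (41.3% of all genes rose and 0.0798% fell). Cell type markers moved as well. All 5 trophectoderm genes rose, with a median difference of 33.7 points, as did 3 of 5 oocyte genes (23.1 points). So did 2 of 4 tested cumulus and granulosa cell genes (21.8 points). The 3 listed inner cell mass genes had 4 entries in the annotation, of which 3 were tested and all 3 rose (34.8 points). Their part in the result was not tested. All 7 DLX and MSX genes and SIX2, SIX3 and SIX6 rose, as did 3 of 4 NKX, 3 of 4 EN, GBX and VAX, 5 of 7 OTX, EMX, PITX and GSC, 4 of 7 PAX, 3 of 6 IRX and 3 of 6 LHX genes. The 13 genes without a call had differences of 10.95 points (LHX4) to 35.9 points (IRX4). Their untreated coverage had a wide range. IRX5 was broadest, with 87.0% and 85.4% in siKDM5BC embryos, against 72.2% and 60.1% in untreated ones. PAX5 was narrowest, with 28.8% and 27.7%, against 20.7% and 7.07%. The called gene NKX2-2 was also broad in untreated embryos, with 64.1% and 62.6%. Why some genes had no call was not tested.

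**Figure D2:**
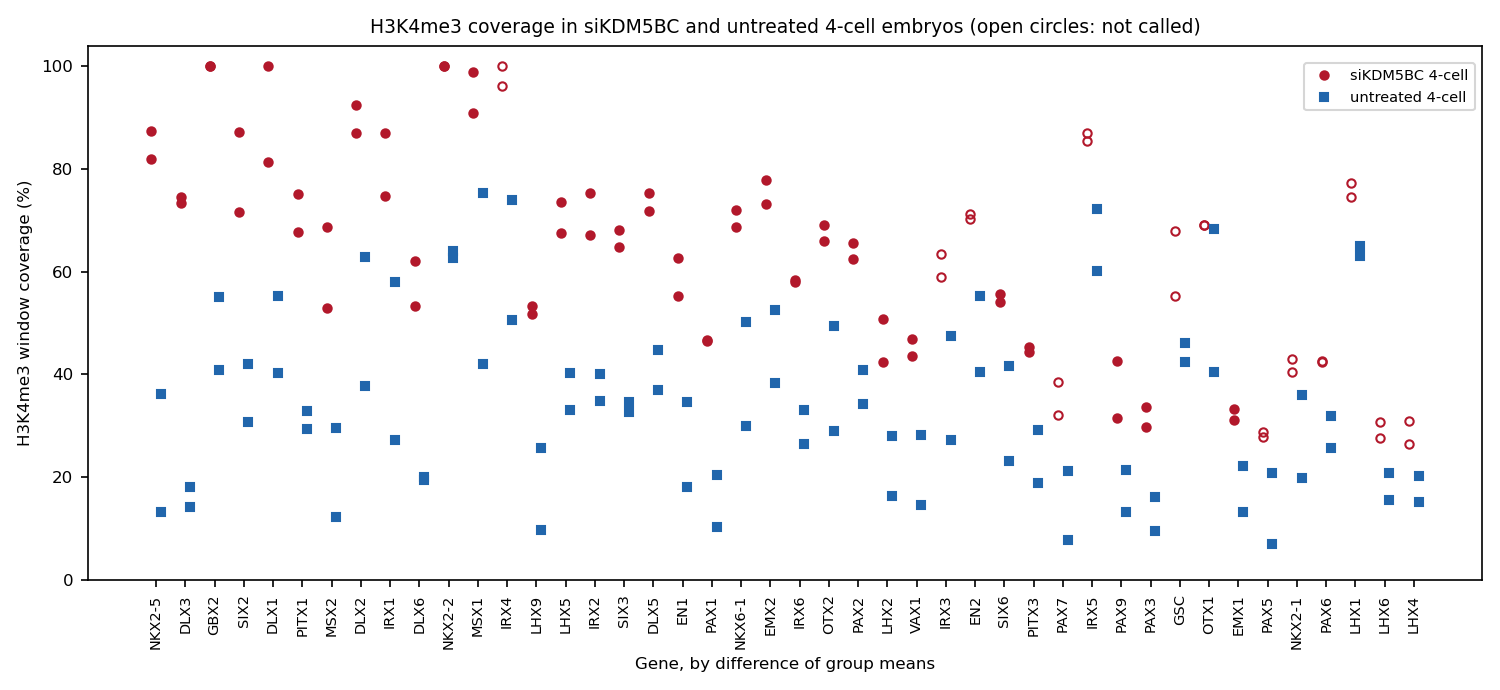
H3K4me3 window coverage (%) of each gene in the 2 siKDM5BC libraries (red circles, filled where the gene rose by the limma test) and the 2 untreated 4-cell libraries (blue squares), ordered by the difference of the means. All red points of a gene lie above its blue points, and the order runs from NKX2-5 with a difference of 59.98 points to LHX4 with 10.95 points.

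NKX2-5, the heart progenitor factor (chromosome 16, 51086014 to 51089165), was covered over 10777 and 11501 bp of its 13152 bp window in siKDM5BC embryos, against 4754 and 1746 bp in untreated 4-cell embryos. The difference was 59.98 ± 13.4 points (SE, limma BH adjusted p = 0.00291). DLX3, needed for the mouse placenta and for skin and teeth (chromosome 12, 26177896 to 26183172), had 74.5% and 73.3% coverage in siKDM5BC embryos, against 18.1% and 14.2% in untreated ones. Its difference was 57.8 ± 11.3 points (limma BH adjusted p = 0.00121), next in size to that of NKX2-5.

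GBX2, which positions the hindbrain (chromosome 15, 136029393 to 136032568), was covered over its whole window of 13176 bp in both siKDM5BC libraries, against 7264 and 5370 bp in untreated embryos, a difference of 52.1 ± 11.1 points (limma BH adjusted p = 0.00221). SIX2, which maintains nephron progenitors, had 71.7% and 87.2% in siKDM5BC embryos, against 42.0% and 30.7% in untreated ones (43.0 ± 14.7 points, limma BH adjusted p = 0.0287). DLX1, a factor of forebrain interneurons, had 100% and 81.3%, against 55.2% and 40.4% (42.9 ± 10.6 points, limma BH adjusted p = 0.00542). The SIX2 call was kept in 5 of 13 alternatives and was lost with any 1 of the 4 libraries left out (adjusted p up to 0.179). The DLX1 call was lost without siKDM5BC replicate 1 (adjusted p = 0.0711) or 4-cell replicate 2 (0.0735), and the NKX2-5 call without 4-cell replicate 2 (0.0553). NKX2-2, a factor of the ventral neural tube and pancreas, was the other gene covered over its whole window, 13917 bp, in both siKDM5BC libraries.

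Single peaks lengthened too. In 33 of the 44 genes the widest peak at the window reached 5000 bp in both siKDM5BC libraries, against 3 genes in untreated 4-cell embryos. Of all coding genes, 15.0% had such a peak in siKDM5BC embryos, against 0.595% in untreated ones. The widest H3K4me3 peak at IRX4 was 29628 and 19015 bp long in siKDM5BC embryos, against 4994 and 2689 bp in untreated ones. At DLX3 it was 10750 and 9882 bp long, against 2201 and 1866 bp.

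The wider coverage was not limited to the windows. From 20 to 50 kb outside the genes the mean share covered was 19.8% and 18.1% in siKDM5BC libraries, against 4.16% and 1.94% in untreated ones, and from 50 to 100 kb it was 16.8% and 15.3%, against 3.73% and 2.02%. The siKDM5BC lists as a whole covered 179 and 164 Mb, against 56.4 and 31.6 Mb, and the part of this difference between libraries in the result at the 44 genes was not tested beyond centring. With each library centred on its own mean over the genes tested, 11 of the 44 genes rose and 0 fell, and over all genes 15.1% rose and 31.5% fell. Without 4-cell replicate 2, the library with the least covered length, 6 of the 44 genes rose (16.8% of all genes tested). Without siKDM5BC replicate 1, 9 rose (24.0%), and without siKDM5BC replicate 2, 17 rose (33.9%). With peaks of −log10 q of 3 or more, 34 genes rose (33.1% of all genes tested), and the medians were 61.6% and 56.9% in siKDM5BC libraries, against 33.9% and 16.2%.

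**Figure D3:**
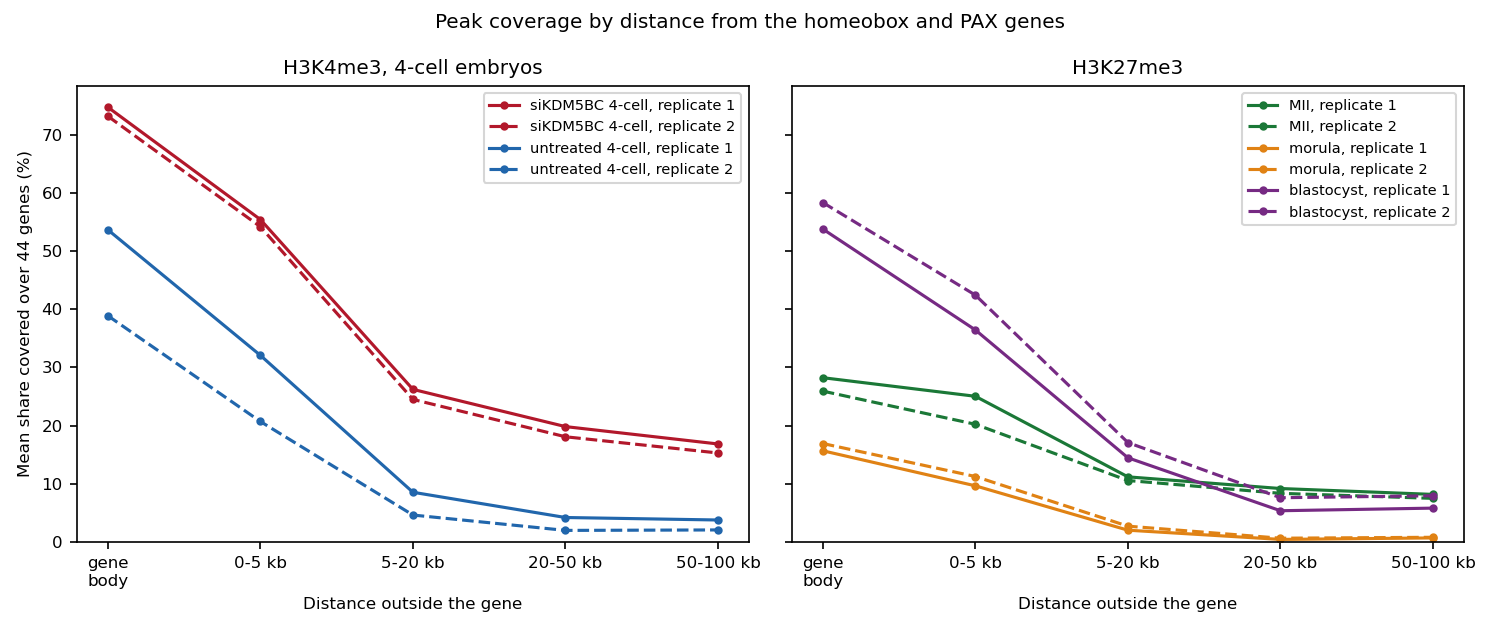
Mean share covered (%) over the 44 genes in the gene body and in 4 zones at increasing distance outside it, for H3K4me3 in 4-cell embryos (left) and H3K27me3 at 3 stages (right), with a line per library. The siKDM5BC lines stay above the untreated lines in every zone, at 74.8% and 73.3% against 53.7% and 38.9% in the gene body, while blastocyst H3K27me3 is at 53.8% and 58.4% in the gene body and at 5.33% and 7.57% at 20 to 50 kb.

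Between untreated 2-cell and 4-cell embryos, around the time of genome activation, 4 of the 44 genes fell in 4-cell embryos and 0 rose (limma; 13.4% of all genes fell and 0.182% rose). The median difference was -11.5 points for the 44 genes, against -5.52 points for all genes tested, and 40 of the 44 means were lower in 4-cell embryos. Both 4-cell libraries lay below both 2-cell libraries at 25 of the 44 genes and above at 2 (52.3% and 5.42% of all genes). DLX3 had 18.1% and 14.2% in 4-cell embryos, against 72.4% and 49.6% in 2-cell embryos (-44.9 ± 11.3 points, limma BH adjusted p = 0.0185). MSX2 had 29.6% and 12.3%, against 73.8% and 44.3% (-38.1 ± 10.5 points, limma BH adjusted p = 0.0274). GBX2 (-37.8 ± 11.1 points, limma BH adjusted p = 0.0357) and IRX6, an Iroquois gene of the eye and nervous system (-25.0 ± 6.98 points, limma BH adjusted p = 0.0286), followed. In all 4 genes the groups did not overlap, and LHX1 and GSC were among the 4 genes with a higher mean in 4-cell embryos (differences of 12.4 and 8.13 points, not called).

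With only peaks of −log10 q of 3 or more, 21 of the 44 genes rose in 4-cell embryos and 0 fell (13.5% and 0.0128% of all genes tested), and GBX2 stood 39.7 points higher in 4-cell than in 2-cell embryos (limma BH adjusted p = 0.0174). Without 2-cell replicate 1 or without 4-cell replicate 2 none of the 44 genes fell, and without 4-cell replicate 1 only 1 did.

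Between blastocysts and 4-cell embryos or MII oocytes, the count of called genes depended on the peaks used. Against 4-cell embryos the median difference was -3.61 points for the 44 genes and 6.13 points for all genes tested, and 1 gene rose and 0 fell (limma; 29.1% of all genes rose and 0.228% fell). The blastocyst libraries lay above both 4-cell libraries at 8 genes and below at 9 (64.4% and 7.28% of all genes). Against MII oocytes it was 1.43 points, beside 7.53 points for all genes, with 4 genes higher and 1 lower in blastocysts (39.0% of all genes rose and 4.94% fell), and libraries that lay above at 15 genes and below at 9 (64.6% and 14.6% of all genes). With peaks of −log10 q of 3 or more, 35 of the 44 genes rose against MII oocytes (85.3% of all genes tested) and 4 rose against 4-cell embryos (48.2%), and with a fold of 3.5 or more 11 rose against MII oocytes (58.7%). With each library centred on its mean, 5 genes fell against 4-cell embryos, and 2 rose and 8 fell against MII oocytes. The shares of all genes called with centring are not given here, so these counts do not set the 44 genes apart.

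MSX2 had the largest difference of the 44 genes in both comparisons, which share the blastocyst libraries. It was covered over 14923 and 14818 bp of its 16159 bp window in blastocysts, against 4787 and 1985 bp in 4-cell embryos and 3454 bp in both MII libraries. The differences were 71.1 ± 10.5 points (limma BH adjusted p = 0.000118) and 70.7 ± 10.5 points (limma BH adjusted p = 9.29e-05), and both held under every alternative setting tried. In morulae it was covered over 14187 and 13922 bp, against 3732 and 3046 bp in 8-cell embryos, so the broad domain was present at the morula stage. Its widest peak was 19557 and 19220 bp long in blastocysts and 18702 and 15469 bp long in morulae.

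GSC, a marker of the gastrula organizer, had 53.6% and 50.7% in blastocysts, against 8.95% and 21.4% in MII oocytes (37.0 ± 8.69 points, limma BH adjusted p = 0.00305), and it already had 42.4% and 46.1% in 4-cell embryos. OTX2, a factor of the epiblast and later of the head, had 46.6% and 49.0% in blastocysts, against 13.5% and 24.1% in MII oocytes (29.0 ± 9.61 points, limma BH adjusted p = 0.0236). OTX2 was highest in morulae, where 16601 and 15803 bp of its 20002 bp window were covered and its widest peak was 19644 and 16449 bp long.

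NKX2-1, the thyroid and lung factor, had 31.6% and 28.0% in blastocysts, against 11.95% and 9.95% in MII oocytes (18.8 ± 7.04 points, limma BH adjusted p = 0.0408). LHX9 was the gene that fell, with 8.63% and 10.1% in blastocysts, against 22.3% and 30.5% in MII oocytes (-17.0 ± 6.53 points, limma BH adjusted p = 0.0452). With any 1 of the 4 libraries left out the LHX9 and NKX2-1 calls were lost, with adjusted p up to 0.217 and 0.177, and the OTX2 call was lost in 3 of the 4 cases, with adjusted p up to 0.139.

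H3K27me3 followed another course. It was present at most of the 44 genes in MII oocytes, without a peak at the ends of any of them at the 2-cell, 4-cell and 8-cell stages, partly present in morulae and present at nearly all of them in blastocysts. In both libraries it marked 29 of 44 genes in MII oocytes (11.4% of all coding genes), 0 in 2-cell (0.103%), 0 in 4-cell (2.46%) and 0 in 8-cell embryos (0.796%), 20 in morulae (2.77%) and 41 in blastocysts (16.9%). The mean coverage of the 44 genes was 27.2% and 23.4% in the MII libraries, 0.0376% and 0.0873% in 2-cell, 0.539% and 0.621% in 4-cell, 0.0955% and 0.282% in 8-cell embryos, 12.5% and 14.4% in morulae and 43.9% and 49.5% in blastocysts. Over all coding genes these means were 4.05% and 3.47% in MII oocytes, 0.736% and 1.18% in 4-cell embryos, 0.670% and 0.832% in morulae and 4.40% and 5.54% in blastocysts.

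**Figure D4:**
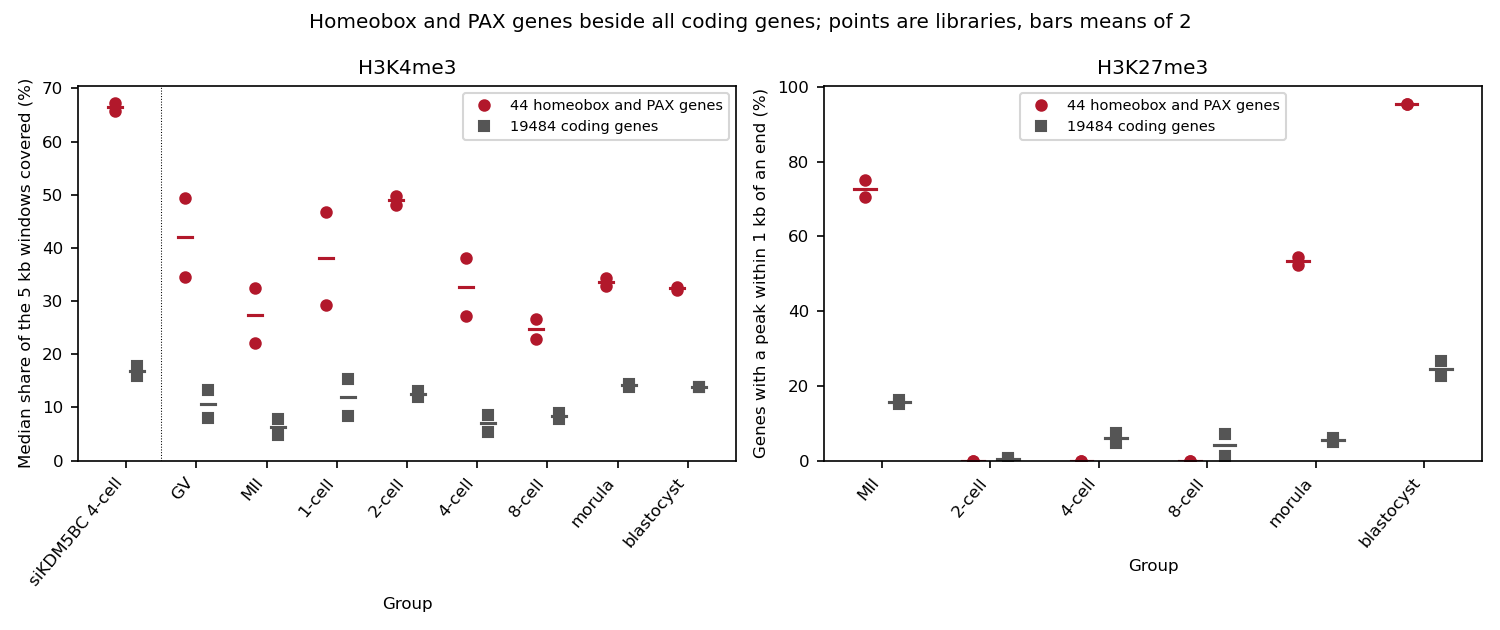
Left, median H3K4me3 window coverage (%) per library of the 44 genes (red circles) and of 19484 coding genes (grey squares), with siKDM5BC before the stages. Right, share of genes (%) with an H3K27me3 peak within 1 kb of an end, where the 44 genes sit at 0 from the 2-cell to the 8-cell stage and both blastocyst libraries lie at 95.5%. Short bars are means of 2 libraries.

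In MII oocytes, 36 of the 44 genes had an H3K27me3 peak in their window in both libraries and 6 had none in either, namely PAX6, PAX9, LHX4, DLX6, PITX3 and GSC. For such counts of peaks in the window, also those below for embryos, the share of all coding genes is not given here. They therefore do not set the 44 genes apart. The IRX family had the highest median of gene means, 41.3%, with means from 36.7% (IRX1) to 86.8% (IRX4), although the IRX1 libraries lay at 57.4% and 15.9%. IRX4, a factor of the heart ventricle, had 82.2% and 91.3%, and its widest peak was 12895 and 24131 bp long. PAX, LHX, NKX, DLX and the OTX group each held genes near 0 beside genes above 30%, such as NKX2-1 with 1.54% and 1.95% beside NKX2-2 with 59.8% and 64.2%.

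At the 2-cell stage 43 of the 44 genes had no H3K27me3 peak in their window in either library. Nearly all coding genes were unmarked too, as 0.103% of them had a peak within 1 kb of an end in both libraries. By limma 29 of the 44 genes fell in 2-cell embryos against MII oocytes and 0 rose (33.1% of all 7024 genes tested fell and 0 rose). On these uncentred values the 43 genes at 0 in both 2-cell libraries could not rise. The 6 genes at 0 in both MII libraries could not fall. The absence of rises is thus no result about the 44 genes. All 6 IRX genes fell, 5 of 7 PAX, 4 of 6 LHX, 3 of 4 NKX, 3 of 7 DLX and MSX, 4 of 7 OTX, EMX, PITX and GSC, SIX2 and SIX3, and 2 of 4 EN, GBX and VAX genes. The median difference was -20.7 points, against -1.73 points for all genes tested. Both 2-cell libraries lay below both MII libraries at 36 of the 44 genes and above at 0 (44.1% and 0.342% of all genes tested). All 4 tested trophectoderm markers and both tested cumulus and granulosa cell markers fell too, with median differences of -35.3 and -23.5 points, and their part in the result was not tested.

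The largest falls were at IRX4 (-86.7 ± 9.62 points, limma BH adjusted p = 0.000131), NKX2-2 (-62.0 ± 4.19 points, 7.28e-06), DLX3 (-58.0 ± 5.18 points, 3.49e-05), NKX2-5 (-55.9 ± 3.04 points, 2.57e-06) and SIX2 (-54.0 ± 4.08 points, 1.37e-05). All 5 had 0 bp covered in both 2-cell libraries. In MII oocytes IRX4 was covered over 12177 and 13539 bp and DLX3 over 10346 and 7381 bp. A group with 0 in both libraries has no spread and lowers the shared estimate of it. This holds for every H3K27me3 comparison, also those of blastocysts, whose SEs draw on the 2-cell to 8-cell groups. With only the 4 libraries compared in the fit, 22 genes fell (share of all genes not given here). With peaks of −log10 q of 3 or more, 35 of the 44 genes passed the filter and 4 fell (20.3% of all genes tested). With each library centred, 25 fell and 8 rose (19.8% and 55.9% of all genes tested).

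PAX7 was the only one of the 44 genes with any H3K27me3 in its window at the 2-cell stage, over 331 and 768 bp. It had 11681 and 10615 bp in MII oocytes, 3525 and 1969 bp in 4-cell embryos and 627 and 1148 bp in 8-cell embryos. At the 4-cell stage PAX2, PAX5, LHX2, LHX4 and EMX1 had a peak in at least 1 library as well, and at the 8-cell stage PAX5, IRX1 and EMX1. None of these peaks lay within 1 kb of a gene end in any of the 6 libraries. The 2-cell lists held 3168 and 2358 peaks and covered 2.01 and 1.28 Mb in all. The 4-cell lists held 25175 and 38054 peaks and the 8-cell lists 8560 and 39135, and there the 44 genes had lower mean coverage than all coding genes.

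In morulae 30 of the 44 genes again had H3K27me3 in both libraries and 10 had none in either. EMX2, a cortex and urogenital factor, had 53.3% and 72.4%, LHX1, a factor of the organizer and kidney, 61.1% and 56.8%, and PAX2, a kidney factor, 35.3% and 49.8%. Of these, EMX2 had 48.4% and 40.8% and PAX2 50.6% and 31.1% in MII oocytes, but LHX1 only 7.26% and 16.7%. Of the 44 genes, 26 had a peak in both libraries of both stages, 6 in both MII libraries and neither morula library, 3 in both morula libraries and neither MII library, and 3 in none of the 4.

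Blastocysts had H3K27me3 in the window of all 44 genes in both libraries. By limma 42 of the 44 genes rose in blastocysts against morulae and 0 fell (56.1% of all genes tested rose and 0.0285% fell), and at all 44 genes both blastocyst libraries exceeded both morula libraries (70.4% of all genes tested, with the reverse at 0.0997%). The 2 genes without a call were DLX3 (5.01 ± 5.18 points, limma BH adjusted p = 0.476) and EN1 (10.3 ± 4.91 points, 0.11). PAX5, PAX9, SIX6, NKX2-1, DLX3, OTX2, PITX1, PITX3, GSC and EN1 had no peak in either morula library. These 10 genes could only be called higher. Of them, PAX9, PITX3 and GSC passed the filter only through blastocysts, and SIX6 and NKX2-1 also needed blastocysts to pass. The filter used these same libraries for all genes, so the all-gene shares depend on it too. The median difference was 31.3 points, against 7.36 points for all genes tested. In the 28 short genes it was 43.1 points and in the 16 longer ones 19.3 points, beside 7.40 and 7.34 points for all short and all longer genes tested. Of 4 tested trophectoderm markers, 3 rose (median difference 20.98 points), and their part in the result was not tested.

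MSX1, a tooth and palate factor, had 79.4% and 78.9% in blastocysts, against 20.9% and 6.02% in morulae (65.7 ± 4.51 points, limma BH adjusted p = 1.31e-05). IRX1 had 58.2% and 78.0%, against 5.92% and 0% (65.1 ± 11.7 points, limma BH adjusted p = 0.00169). LHX5, a forebrain gene, had 76.4% and 71.2%, against 7.35% and 12.2% (64.1 ± 4.72 points, limma BH adjusted p = 1.70e-05). NKX2-5 (61.0 ± 3.04 points, limma BH adjusted p = 5.34e-06) and SIX2 (57.3 ± 4.08 points, limma BH adjusted p = 1.55e-05) followed. Of the 42 calls, 29 were made with only the 4 libraries compared in the fit (share of all genes not given here). With peaks of −log10 q of 3 or more, 19 were made (33.8% of all genes tested).

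Within each family the blastocyst level of H3K27me3 had a wide range. Among PAX genes PAX2 was highest with 73.3% and 66.6% and PAX5, the B-cell factor, lowest with 10.2% and 8.77%. SIX2 had 78.2% and 87.0% and SIX6, an eye and pituitary factor, 28.0% and 32.0%. IRX1 was the highest IRX gene, and IRX2 the lowest with 31.2% and 51.1%, and the libraries of these genes did not overlap. LHX1 had 86.9% in both libraries and LHX4, a pituitary factor, 20.8% and 23.1%.

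NKX2-2 had 88.4% and 88.3% and NKX2-1 29.6% and 43.6%. MSX1 led the DLX and MSX genes and DLX3 was lowest of all 44 genes with 2.89% and 7.14%. EMX2 was highest of all 44 genes with 88.7% and 91.8%, and PITX3, a factor of dopamine neurons and lens, was lowest of its group with 12.9% and 13.2%. GBX2 had 52.8% and 63.3% and EN1, a midbrain and limb factor, 2.25% and 18.4%. H3K27me3 was widest as single peaks at PAX7 (19526 and 32301 bp) and PAX2 (28954 and 30914 bp), and in 22 of the 44 genes the widest peak reached 5000 bp in both libraries (2.44% of all coding genes), against 6 genes in MII oocytes (2.00%).

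**Figure D5:**
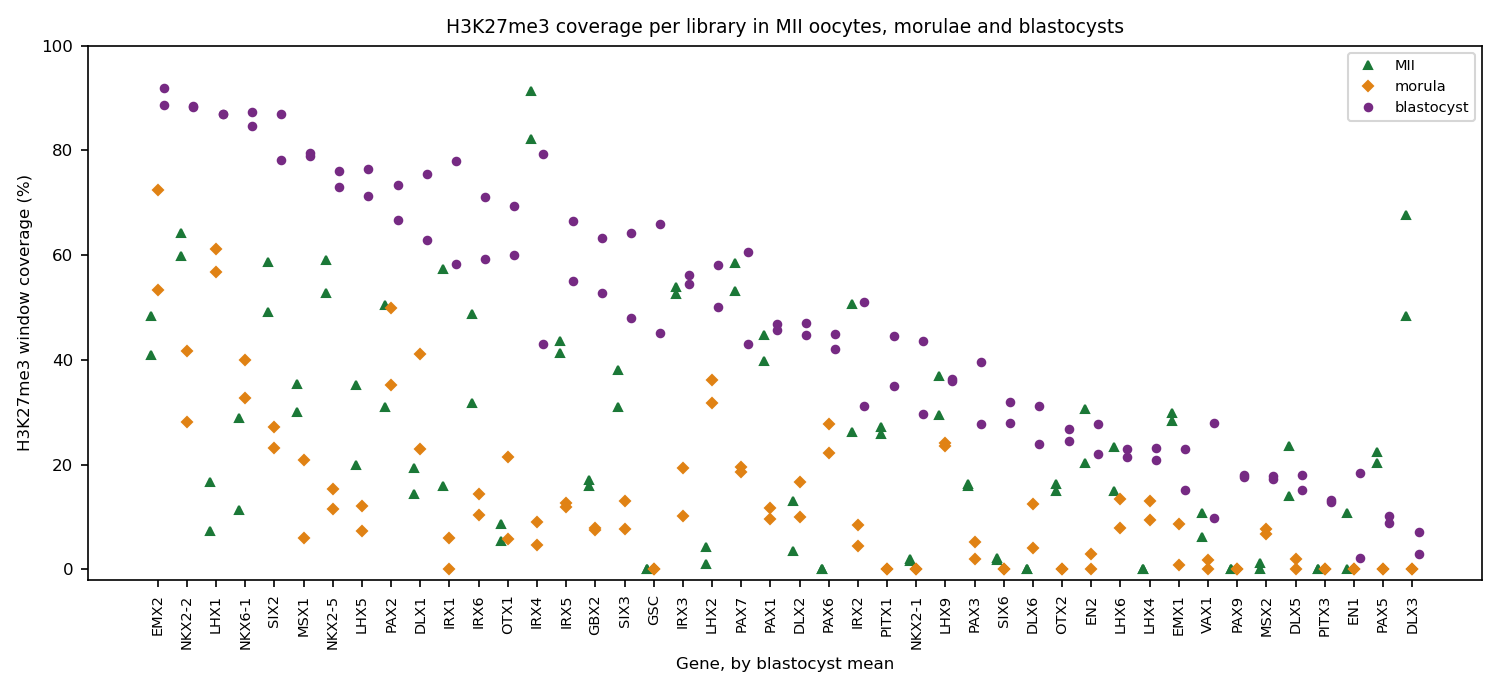
H3K27me3 window coverage (%) per library in MII oocytes (green triangles), morulae (orange diamonds) and blastocysts (purple circles), with genes ordered by their blastocyst mean from EMX2 (90.2%) to DLX3 (5.01%). IRX4 and DLX3 are the genes whose MII points stand furthest above their blastocyst points.

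Set against MII oocytes, blastocysts had more H3K27me3 at 30 of the 44 genes and less at 4 (limma; 44.1% of all genes tested rose and 21.8% fell). Both blastocyst libraries lay above both MII libraries at 32 genes and below at 4 (50.5% and 25.2% of all genes tested). These comparisons share libraries with those above. PAX6, PAX9, LHX4, DLX6, PITX3 and GSC were at 0 in both MII libraries, so a rise was the only direction open to these 6 genes. As above, PAX9, PITX3, GSC, SIX6 and NKX2-1 passed the filter only with the blastocyst libraries. LHX1 was covered over 14662 and 14657 bp of its 16876 bp window in blastocysts, against 1225 and 2825 bp in MII oocytes (74.9 ± 3.45 points, limma BH adjusted p = 1.27e-06). NKX6-1, a beta-cell and motor neuron factor, had 84.7% and 87.3%, against 11.3% and 29.0% (65.9 ± 5.31 points, limma BH adjusted p = 1.43e-05). OTX1, a cortex factor, had 60.1% and 69.4%, against 8.66% and 5.46% (57.7 ± 4.97 points, limma BH adjusted p = 2.04e-05).

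GSC was covered over 5472 and 7967 bp in blastocysts, against 0 bp in both MII libraries and in all 8 libraries between (55.5 ± 5.33 points). It passed the filter only through blastocysts, so its call could only be a rise. DLX1 had 62.9% and 75.4%, against 19.3% and 14.3% (52.3 ± 5.995 points, limma BH adjusted p = 9.72e-05). All 4 NKX genes and SIX2, SIX3 and SIX6 rose, as did 6 of 7 OTX, EMX, PITX and GSC, 5 of 7 DLX and MSX, 4 of 6 LHX, 4 of 7 PAX, 3 of 6 IRX and 1 of 4 EN, GBX and VAX genes. PITX1, a hindlimb and pituitary factor, was among the rises at 13.3 ± 2.90 points (limma BH adjusted p = 0.00383), but with peaks of a fold of 3.5 or more it stood lower in blastocysts, at -11.2 points (0.000367), and with −log10 q of 3 or more at -9.87 points (0.128).

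The 4 genes with less H3K27me3 in blastocysts were DLX3, IRX4, PAX5 and EMX1. DLX3 had 441 and 1090 bp in blastocysts, against 10346 and 7381 bp in MII oocytes (-53.0 ± 5.18 points, limma BH adjusted p = 3.93e-05), and its H3K4me3 covered 6887 and 6329 bp in blastocysts. IRX4 had 43.1% and 79.3%, against 82.2% and 91.3% (-25.6 ± 9.62 points, limma BH adjusted p = 0.0441). PAX5 had 10.2% and 8.77%, against 22.5% and 20.3% (-11.9 ± 1.73 points, limma BH adjusted p = 0.000401). EMX1, a cortex factor, had 15.1% and 23.0%, against 29.9% and 28.3% (-10.0 ± 3.21 points, limma BH adjusted p = 0.0232), but with peaks of −log10 q of 3 or more it stood 11.8 points higher in blastocysts (limma BH adjusted p = 0.0245). Without blastocyst replicate 1 the IRX4 difference was -7.46 points (adjusted p = 0.137), its call was kept in 7 of 13 alternatives (adjusted p up to 0.272) and the EMX1 call was kept in 4 of 13.

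Both marks met at many of these genes in MII oocytes, morulae and blastocysts, and at 0 or 1 of them from the 2-cell to the 8-cell stage. A gene counted as under both marks when at least 1 bp of its window was covered in all 4 libraries of a stage. This held for 32 of the 44 genes in MII oocytes (10.3% of all coding genes), 0 in 2-cell (0.0667%), 0 in 4-cell (0.395%) and 1 in 8-cell embryos (PAX7 over 296 bp; 1.70%), 24 in morulae (4.44%) and 40 in blastocysts (17.9%). The 4 genes without shared base pairs in blastocysts were PAX5, LHX9, DLX6 and EN1. Summed over the window, the most shared base pairs in blastocysts were at LHX1 (7000 bp), followed by LHX5 (5776 bp), NKX2-2 (5557 bp) and EMX2 (5261 bp). In MII oocytes the largest such sum was at IRX3 (5018 bp). With peaks of −log10 q of 3 or more, the MII count was 0 (0.0411% of all coding genes), the morula count 8 (0.441%) and the blastocyst count 23 (2.77%). The marks were measured in separate libraries, so the same cell or allele cannot be shown to carry both.

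Other homeobox genes gave a frame for these counts. Of 64 other patterning homeobox genes, such as ISL1 and PDX1, 43 rose in H3K4me3 in siKDM5BC against untreated 4-cell embryos, with a median difference of 26.5 points. Of 31 measured homeobox genes in wide use outside patterning, such as MEIS1 and ZEB2, 11 rose, with a median difference of 10.1 points. H3K27me3 marked 27 of the 64 patterning genes in both MII libraries, 18 in both morula and 43 in both blastocyst libraries, but 3, 0 and 9 of the 31 widely used genes. Both marks met in blastocysts at 45 of the 64 and at 8 of the 31 genes. Between blastocysts and morulae H3K27me3 rose at 50 of the 64 and at 10 of the 31 genes, of which 58 and 14 passed the coverage filter.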

How the data were processed

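Each of the 30 libraries had 1 list of broad peaks, called per library. Per the submitters' processing notes, Bowtie2 2.4.1, MACS2 and the pig build susScr11 were used; the MACS2 version, input control, calling threshold and read filters: not given in the sources used here. Each deposited list gives a fold enrichment ratio, a −log10 p and a −log10 q for each peak, made by the authors' peak caller, and these served only as filters within a list. Covered base pairs were computed from merged peak positions with Python 3.11.15, numpy 2.4.6 and pandas 2.3.3. Gene positions came from the RefSeq annotation of Sscrofa11.1, the same assembly, used without strand. Because the lists hold no counts, limma 3.58.1 in R 4.3.3 (lmFit, then eBayes with trend) was fitted to the covered percentage, with all groups of a mark sharing 1 estimate of the spread, two-sided, BH adjusted over 17538 genes (H3K4me3) or 7024 genes (H3K27me3) with a mean of at least 1%, and called at an adjusted p under 0.05. There were 7 comparisons, and the script was tested on simulated data. The genes and lists were chosen with earlier results of these data known. Genes named with values are, in each comparison and direction, the up to 5 called with the largest difference, and in each family the highest and lowest in blastocyst H3K27me3; others named, such as PAX7, IRX5, PITX1, and OTX2 and LHX1 in morulae, were picked after their values were seen. Alternatives covered peak strength, window width, scale, centring, the filter, a replicate block and leaving out each library. Promoter sequences were not used here.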

Additional observations from a re-analysis of the deposited data

How the results depend on the processing

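Counts of calls and marked genes were recomputed under 239 alternatives, of which 167 stayed within 1.5 times the reported count. With −log10 q of 1.6 or more, 17 of the 44 genes rose in siKDM5BC against 4-cell embryos, 0 fell in 4-cell against 2-cell embryos and 0 fell in blastocysts against MII oocytes. With −log10 q of 3 or more, 21 rose and 0 fell in 4-cell against 2-cell embryos, 4 rose and 1 fell in blastocysts against 4-cell embryos, and 35 rose and 0 fell in blastocysts against MII oocytes. For H3K27me3 the same limit left 4 falls in 2-cell embryos against MII oocytes, 19 rises in blastocysts against morulae and 1 fall in blastocysts against MII oocytes, with 35 of the 44 genes passing the filter. With a fold of 3.5 or more, 16 genes rose in siKDM5BC, 0 fell in 4-cell against 2-cell embryos, and 11 rose and 0 fell in H3K4me3 of blastocysts against MII oocytes. Windows of 2.5 kb gave 20 rises in siKDM5BC, 2 falls in 4-cell against 2-cell embryos, 2 rises in H3K4me3 of blastocysts against 4-cell embryos, and 2 falls against MII oocytes for either mark. Centring each library gave 11 rises in siKDM5BC, 5 falls in H3K4me3 of blastocysts against 4-cell embryos, 2 rises and 8 falls against MII oocytes, and 8 rises in H3K27me3 of 2-cell embryos against MII oocytes. Fitting only the 4 libraries compared, an alternative chosen after seeing the data, gave 17 rises in siKDM5BC, 0 falls in 4-cell against 2-cell embryos, 2 rises in H3K4me3 of blastocysts against 4-cell embryos, and 2 falls against MII oocytes for either mark. Shares of all genes at these settings are given above only in part, and a count without its share does not set the 44 genes apart. The causes were not tested.

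Leaving out 1 library at a time gave 6 to 30 rises in siKDM5BC, 0 to 5 falls in 4-cell against 2-cell embryos, and 2 to 4 rises and 0 falls in H3K4me3 of blastocysts against MII oocytes. For H3K27me3 it gave 26 to 29 falls in 2-cell embryos, 38 to 42 rises in blastocysts against morulae, and 29 to 32 rises and 2 to 5 falls in blastocysts against MII oocytes. A lone library left in a group is assumed to vary like the other groups. Same-numbered replicates showed correlations of their deviations of -0.04997 to 0.116 over the 7 comparisons. These values cannot show whether such replicates came from the same collection. With the replicate block, 0 genes fell in H3K4me3 of blastocysts against MII oocytes and no other count moved by over 1.5 times.

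Of 441 alternative values for the 34 named differences, 357 kept their call, 77 lost it and 7 changed sign. With −log10 q of 3 or more the differences in 4-cell against 2-cell embryos became 15.1 points at DLX3, 15.2 at MSX2, 39.7 at GBX2 and 16.6 at IRX6, that in H3K4me3 of blastocysts against MII oocytes became 4.84 at LHX9, and that in H3K27me3 of blastocysts against MII oocytes became 11.8 at EMX1. With a fold of 3.5 or more GBX2 stood 10.6 points higher in 4-cell than in 2-cell embryos.

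Requiring 50% of the window within 1 kb of the ends to be covered left 23 marked genes in GV, 9 in MII, 8 in 1-cell, 22 in 2-cell, 15 in 4-cell, 10 in 8-cell, 23 in morula and 18 in blastocyst H3K4me3, and 8 in MII, 2 in morula and 24 in blastocyst H3K27me3. With −log10 q of 1.6 or more 16 were marked in MII and 16 in 1-cell H3K4me3, and with 3 or more 8 in GV, 0 in MII, 0 in 1-cell and 0 in 2-cell H3K4me3, and 4 in MII, 6 in morula and 22 in blastocyst H3K27me3. Genes under both marks numbered 0 in MII, 0 in 8-cell, 8 in morula and 23 in blastocyst samples at that limit, and 0 in 8-cell embryos with at least 500 bp required.

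Windows at the transcription start only were not run, because the annotation used here gives no strand. Read depth is unknown, and a peak missing from a shallow list cannot be told from a mark that is not there.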
